A study of Mus musculus with 20 samples.

Results

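The 10 genes described here encode the NF-κB subunits (Nfkb1, Nfkb2, Rela, Relb and Rel) and the IκB proteins (Nfkbia, Nfkbib, Nfkbie, Nfkbiz and Bcl3), chosen by name from the 55335 genes of the table. They were measured by bulk RNA sequencing of poly(A) RNA in C2C12 myotubes, the multinucleated muscle cells that form by fusion in a single mouse myoblast line. Myotubes were transduced with adenovirus on day 4 of differentiation and harvested 48 h later. In the Per1 experiment, 5 libraries of Per1 overexpressing myotubes were compared with 5 libraries of Gfp expressing myotubes. In the Per2 experiment, 5 libraries of Per2 overexpressing myotubes were compared with 5 other libraries of Gfp expressing myotubes. The Per viruses carry the period gene, a repressor of the molecular clock, together with Gfp, each under a CMV promoter of its own, and the control virus carries Gfp alone, so every culture was infected and expressed Gfp. The Per viruses were given at a higher concentration than the Gfp virus, and virus dose and period gene cannot be told apart in either comparison.

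NF-κB is a family of dimeric transcription factors whose subunits share the Rel homology domain. The classical IκB proteins hold the dimers in the cytoplasm until the IκB kinase complex marks them for degradation, and a second route, through the kinase NIK, processes the Nfkb2 precursor and frees dimers with RelB. Nuclear IκB proteins, among them IκBζ (Nfkbiz) and BCL3, instead bind subunits on DNA and change which genes are transcribed. In skeletal muscle the pathway is known for its part in wasting, and in mice Nfkb1 and Bcl3 were needed for the loss of mass in unloaded muscle.

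Because NF-κB activates several of its own genes, the promoter sequences of the members are shown first. RefSeq promoter windows of build GRCm38.p6, 250 bases before to 50 bases after a transcription start, could be matched by symbol for 7 of the 10 members (Nfkb2, Rel, Rela, Nfkbia, Nfkbib, Nfkbie and Bcl3), in 9 windows since Nfkb2 has 3. They were searched on both strands for the textbook κB consensus of 10 bases, named κB consensus here. The pattern was GGGRNNYYCC (R is A or G, Y is C or T, N is any base), and it was chosen after searches of the windows. It occurred in 8.46% of all 32851 windows. It was found for 5 of the 7 members (Nfkb2, Rel, Nfkbia, Nfkbie and Bcl3) and in neither the Rela nor the Nfkbib window. That count is over members and the share over single windows, so enrichment was not tested. A match is a description of the sequence and not evidence of binding. The 250 bases before the start are printed 5′ to 3′ on the strand of the gene, with bases in a match in capitals, for a subunit with matches and lower mRNA content in both experiments (Nfkb2, chr19:46304487-46304736, + strand), for another (Rel, chr11:23770970-23771219, − strand), for the inhibitor that the pathway resynthesizes (Nfkbia, chr12:55492648-55492897, − strand) and for the subunit without a match (Rela, chr19:5637291-5637540, + strand).
Nfkb2: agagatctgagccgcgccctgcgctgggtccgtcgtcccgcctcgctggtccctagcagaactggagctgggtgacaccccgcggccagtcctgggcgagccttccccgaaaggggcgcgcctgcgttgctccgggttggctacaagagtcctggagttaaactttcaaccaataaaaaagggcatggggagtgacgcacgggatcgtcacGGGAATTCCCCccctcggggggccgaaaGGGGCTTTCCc
Rel: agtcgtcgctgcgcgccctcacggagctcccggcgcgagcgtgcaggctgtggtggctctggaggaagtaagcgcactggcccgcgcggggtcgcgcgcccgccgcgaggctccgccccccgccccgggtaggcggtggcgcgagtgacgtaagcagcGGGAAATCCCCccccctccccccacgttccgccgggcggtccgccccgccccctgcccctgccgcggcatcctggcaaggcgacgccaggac
Nfkbia: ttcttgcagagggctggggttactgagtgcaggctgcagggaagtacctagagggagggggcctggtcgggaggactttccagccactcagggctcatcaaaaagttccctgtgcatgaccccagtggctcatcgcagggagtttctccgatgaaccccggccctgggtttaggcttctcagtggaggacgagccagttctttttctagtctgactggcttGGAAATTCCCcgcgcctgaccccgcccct
Rela: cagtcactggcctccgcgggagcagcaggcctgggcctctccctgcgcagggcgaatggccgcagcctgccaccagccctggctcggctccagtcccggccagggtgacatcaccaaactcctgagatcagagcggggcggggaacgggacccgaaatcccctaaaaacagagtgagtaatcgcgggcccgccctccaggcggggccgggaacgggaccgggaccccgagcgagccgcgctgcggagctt

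In the first Nfkb2 window the matches began 39 and 11 bases before the start, and overlapping matches on the 2 strands merge into the longer run of capitals. Nfkb2 windows 2 and 3, around other starts of the gene, held 2 and 1 matches, and share GGGACTTTCC, which begins at base 11 of the transcript in window 2 and 225 bases before the start in window 3. The Rel match began 92 bases and the Nfkbia match 29 bases before the start. In the Nfkbie window the match GGGGGATTCC began 106 bases before the start, and in the Bcl3 window GGGAAGTCCC began at base 3 of the transcript. The printed members were picked partly by their values, and a link between matches and differences was not tested. Nfkbie, with a match, passed the test described below in neither experiment. Nfkbib, without a match, was lower with Per1, and Nfkb1, Relb and Nfkbiz had no window.

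All values below are the authors' regularized log2 values (rlog), a log2 scale of normalized read counts in which differences between libraries are drawn toward 0, most for genes with few reads. Read counts were not used here, so library depth and counting error cannot be given. A set of 2712 genes was at 0 throughout the Per1 experiment alone and another of 2391 throughout the Per2 experiment alone, so the experiments had been transformed separately, and levels and differences were compared within an experiment. Whether Per1 and Per2 acted differently on a gene was not tested. Differences are Per minus Gfp on the rlog scale with limma's standard error and an adjusted p over all genes tested, and "passed the test" means an adjusted p of at most 0.05. The study took its RNA within a single experimental replicate, and p-values therefore cover no more than the spread among sister cultures. The transduced gene checked the labels. Per1 lay at 19.39 to 19.65 rlog in Per1 overexpressing myotubes and at 15.22 to 15.30 in their Gfp libraries, and Per2 at 19.65 to 19.77 in Per2 overexpressing myotubes and 14.73 to 14.96 in theirs.

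In Per1 overexpressing myotubes, 7 of the 10 members had lower mRNA content than in Gfp expressing myotubes and none was higher. The 7 were Nfkbiz, Relb, Rel, Nfkb2, Nfkb1, Nfkbib and Bcl3, and in each of them the Per1 and Gfp libraries did not overlap. Among all genes tested in this experiment 20.6% passed the test as lower and 20.1% as higher, and 15.0% had all Per1 libraries below all Gfp libraries. In Per2 overexpressing myotubes, 5 of the 10 (Nfkbiz, Nfkb2, Rel, Relb and Nfkb1) were lower and none was higher, against 17.5% lower and 18.6% higher among all genes. The libraries did not overlap for 4 of those 5, all but Nfkb1, against 12.8% of all genes. These 5 were lower in both experiments, which is 5 of the 7 with Per1 and 5 of the 5 with Per2. The share of all genes lower in both experiments was not computed, so this overlap is not a result about the family. Only Nfkbiz also reached a log2 difference of 0.5 in size, in both experiments, a size reached with the test by 0.253% of all genes as lower and 0.443% as higher with Per1, and by 0.296% and 0.325% with Per2. The median difference over the 10 members was −0.12 with Per1 and −0.048 with Per2, against 0.0011 and 0.00060 over all genes tested. When each library was centred on its median, the split of all genes moved to 3080 higher and 5912 lower with Per1, where it was 4131 and 4232, and to 2765 and 5118 with Per2, where it was 3842 and 3600. Under that centring 9 members were lower with Per1 and 5 with Per2.

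**Figure D1:**
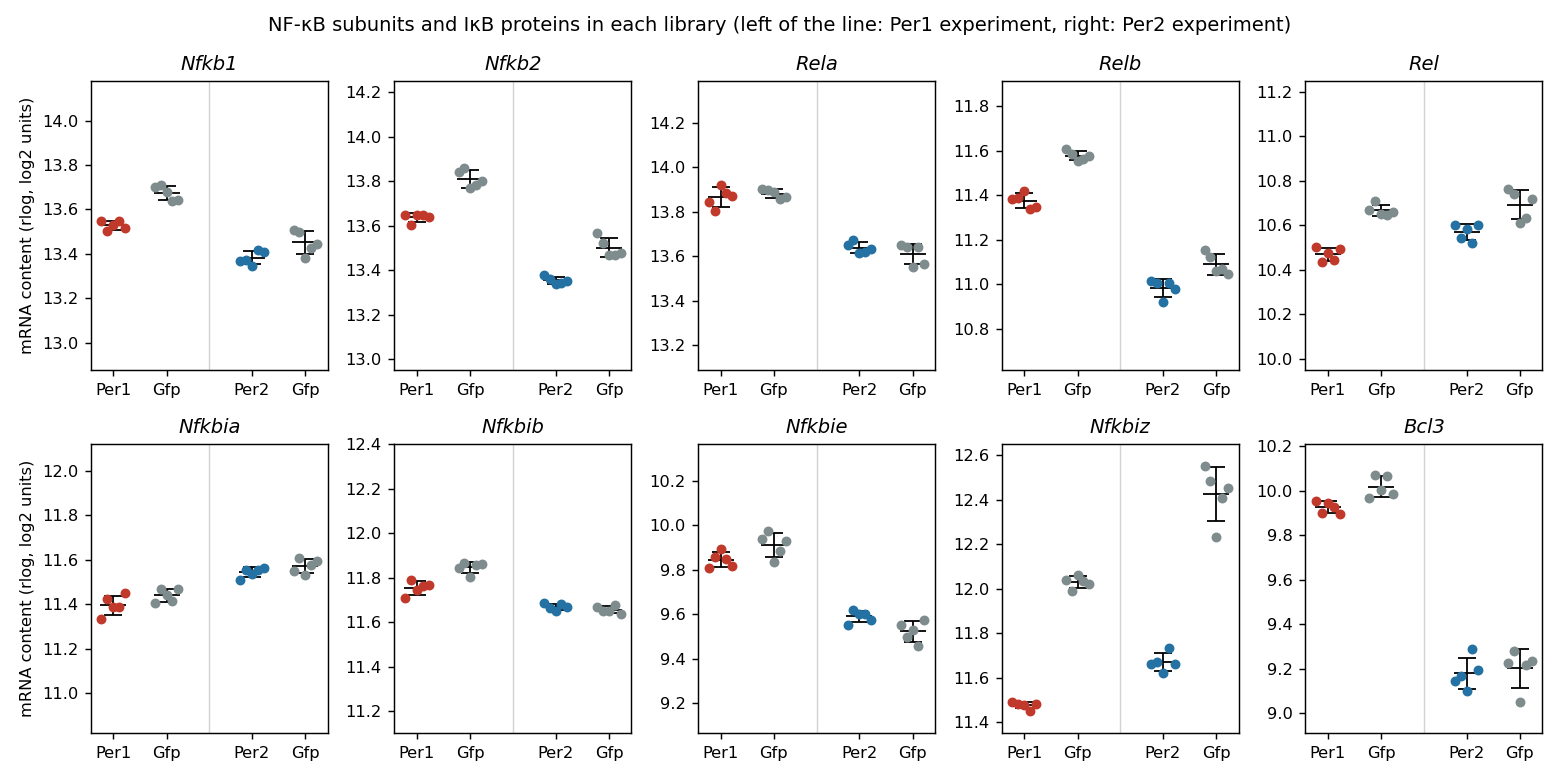
mRNA content (rlog, log2 units) of the 10 members in each of the 20 libraries, 1 point per library, with the mean and SD of each group of 5; left of the line are the Per1 and Gfp libraries of the Per1 experiment and right of it the Per2 and Gfp libraries of the Per2 experiment. Every panel spans the same range of log2 units; the Nfkbiz groups stand furthest apart (11.45 to 11.49 against 11.99 to 12.06, and 11.62 to 11.73 against 12.23 to 12.55).

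The 5 subunits are taken first, beginning with those that can activate transcription by themselves. Rela, the transactivating subunit of the most common dimer (chromosome 19 of GRCm39, 5687493 to 5698161), was at 13.84, 13.80, 13.92, 13.88 and 13.87 in Per1 libraries 11 to 15 and at 13.90, 13.90, 13.89, 13.86 and 13.86 in Gfp libraries 11, 13, 14, 15 and 16. It was at 13.65, 13.67, 13.61, 13.62 and 13.63 in Per2 libraries 1 to 5 and at 13.65, 13.64, 13.55, 13.64 and 13.56 in Gfp libraries 1 to 5. The groups overlapped in both experiments, and Rela was the subunit that passed the test in neither. The difference was −0.018 (standard error 0.021, adjusted p = 0.541) with Per1 and 0.028 (standard error 0.023, adjusted p = 0.38) with Per2.

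Relb, which partners the processed Nfkb2 product in the NIK-dependent route (chromosome 7, 19339017 to 19363425), was at 11.38, 11.39, 11.42, 11.34 and 11.35 in Per1 overexpressing myotubes and at 11.61, 11.58, 11.55, 11.56 and 11.57 in Gfp expressing myotubes. In the Per2 experiment it was at 11.02, 11.01, 10.92, 11.00 and 10.98 with Per2 and at 11.15, 11.12, 11.06, 11.07 and 11.04 with Gfp. Every Per library lay below every Gfp library of its experiment. Relb averaged 11.38 ± 0.033 with Per1 and 11.58 ± 0.021 with Gfp (SD, n = 5 each), a fall of 0.20 (standard error 0.021, adjusted p = 2.83e-06), or 13.0% on the linear scale of rlog. With Per2 it averaged 10.98 ± 0.040, against 11.09 ± 0.047 with Gfp (SD, n = 5 each; difference −0.11, standard error 0.028, adjusted p = 0.00852).

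Rel, the c-Rel subunit best known from lymphocytes (chromosome 11, 23686847 to 23721264), was at 10.50, 10.44, 10.48, 10.44 and 10.49 in the Per1 libraries and 10.67, 10.71, 10.65, 10.65 and 10.66 in their Gfp libraries. With Per2 it was at 10.60, 10.54, 10.58, 10.52 and 10.60, and with Gfp at 10.76, 10.74, 10.61, 10.63 and 10.72. The groups were again separate, although in the Per2 experiment the highest Per2 library and the lowest Gfp library, number 3, were 0.0077 apart. The difference was −0.20 (standard error 0.023, adjusted p = 8.55e-06) with Per1 and −0.12 (standard error 0.032, adjusted p = 0.00822) with Per2.

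Nfkb1 and Nfkb2 encode precursors that act as inhibitors themselves and are shortened to DNA-binding subunits without a transactivation domain. Nfkb2 (chromosome 19, 46292759 to 46303812), whose promoter windows with κB matches are printed above, was at 13.65, 13.61, 13.65, 13.65 and 13.64 with Per1 and at 13.84, 13.86, 13.77, 13.78 and 13.80 with Gfp. It was at 13.38, 13.36, 13.34, 13.34 and 13.35 with Per2 and at 13.57, 13.52, 13.47, 13.47 and 13.48 with Gfp. All Per libraries lay below all Gfp libraries, with gaps of 0.12 and 0.090 between the nearest ones. Nfkb2 averaged 13.64 ± 0.019 with Per1 and 13.81 ± 0.040 with Gfp, and 13.36 ± 0.015 with Per2 and 13.50 ± 0.042 with Gfp (SD, n = 5 each). The differences were −0.17 (standard error 0.020, adjusted p = 6.80e-06) with Per1, a fall of 11.3%, and −0.15 (standard error 0.021, adjusted p = 9.58e-05) with Per2, a fall of 9.65%.

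Nfkb1 (chromosome 3, 135290264 to 135397742) was at 13.55, 13.50, 13.53, 13.55 and 13.52 in the Per1 libraries and 13.70, 13.71, 13.68, 13.64 and 13.64 in their Gfp libraries, which did not overlap. It was at 13.37, 13.38, 13.35, 13.42 and 13.41 in the Per2 libraries and 13.51, 13.50, 13.38, 13.43 and 13.45 in the Gfp libraries of that experiment, where Gfp library 3 lay below 2 of the Per2 libraries. The difference was −0.14 (standard error 0.018, adjusted p = 1.70e-05) with Per1 and −0.069 (standard error 0.025, adjusted p = 0.0444) with Per2. The Per2 value lies close to the threshold. It missed the threshold when low values were kept (adjusted p = 0.0942), with no trend in the prior variance (0.0556), and without Gfp library 1, 2 or 5 or Per2 library 1, 2, 3 or 5 (0.0508 to 0.109), while the direction was the same throughout.

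Each of the other subunits was also set against Rela within the same library, as a difference of rlog values. Since Rela passed the test in neither experiment, these values restate the falls given above and are not separate support for them. Nfkb2 minus Rela was −0.27 to −0.19 in Per1 libraries and −0.12 to −0.036 in their Gfp libraries, and −0.31 to −0.27 in Per2 libraries and −0.18 to −0.082 in theirs. Relb minus Rela was −2.55 to −2.42 with Per1 and −2.33 to −2.29 with Gfp, and −2.70 to −2.62 with Per2 and −2.57 to −2.49 with Gfp. Rel minus Rela was −3.44 to −3.34 with Per1 and −3.24 to −3.19 with Gfp, and −3.13 to −3.03 with Per2 and −3.01 to −2.85 with Gfp. None of these 3 ratios overlapped between Per and Gfp libraries in either experiment. Nfkb1 minus Rela was −0.39 to −0.30 with Per1 and −0.22 to −0.19 with Gfp, without overlap, and −0.30 to −0.20 with Per2 and −0.21 to −0.12 with Gfp, with overlap.

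**Figure D2:**
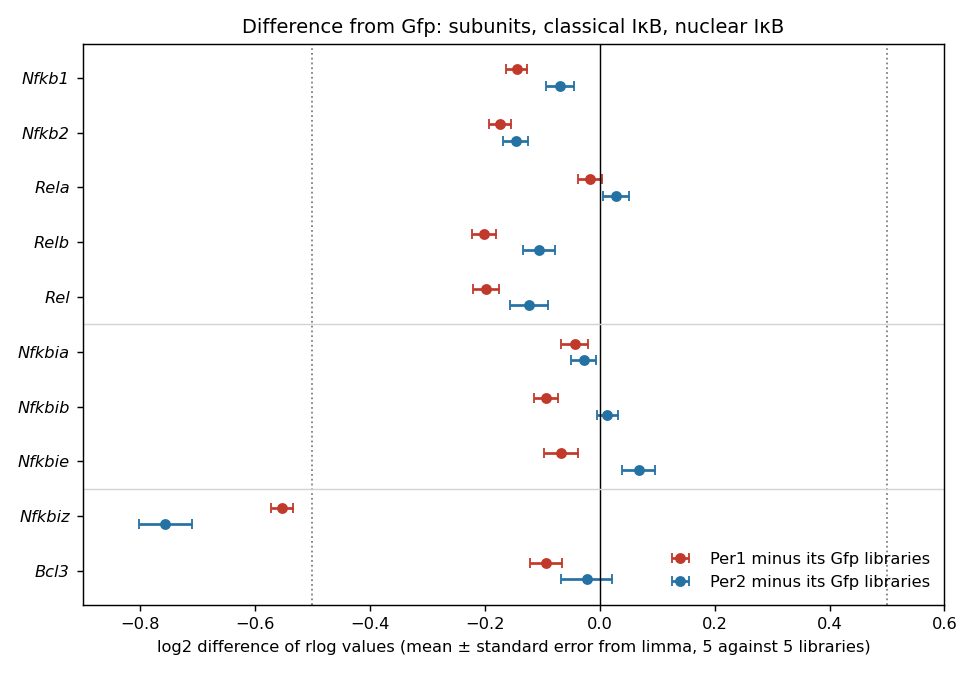
Log2 difference of rlog values (Per minus Gfp, mean ± limma's standard error, 5 against 5 libraries) for each member, Per1 in red above Per2 in blue, with lines between the subunits, the classical IκB genes and the nuclear IκB genes; the dotted lines mark a difference of 0.5 in size. Nfkbiz at −0.55 and −0.76 lies past the dotted line, and the other 9 members lie between −0.20 and 0.068.

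Of the 3 classical IκB genes, Nfkbib passed the test with Per1, and Nfkbia and Nfkbie passed it in neither experiment. Nfkbia encodes IκBα, the inhibitor that is resynthesized when NF-κB is active and ends the response (chromosome 12, 55535332 to 55539432). It ranged over 11.34 to 11.45 with Per1 and 11.40 to 11.47 with Gfp, and over 11.51 to 11.56 with Per2 and 11.53 to 11.61 with Gfp, so that the groups overlapped in both experiments. Its difference was −0.044 (standard error 0.024, adjusted p = 0.165) with Per1 and −0.028 (standard error 0.022, adjusted p = 0.357) with Per2. Nfkbib, for IκBβ (chromosome 7, 28457486 to 28466937), fell with Per1, where it was at 11.71, 11.79, 11.75, 11.76 and 11.77 in the Per1 libraries and 11.85, 11.87, 11.81, 11.86 and 11.86 in the Gfp libraries (difference −0.093, standard error 0.021, adjusted p = 0.00206). In the Per2 experiment Nfkbib spanned 11.65 to 11.69 with Per2 and 11.64 to 11.68 with Gfp, a difference of 0.013 (standard error 0.019, adjusted p = 0.629). Nfkbie, for IκBε (chromosome 17, 45866585 to 45874661), ranged over 9.81 to 9.89 with Per1 and 9.84 to 9.97 with Gfp (difference −0.067, standard error 0.030, adjusted p = 0.0889), and over 9.55 to 9.62 with Per2 and 9.46 to 9.57 with Gfp (difference 0.068, standard error 0.029, adjusted p = 0.0799). Some of these calls change with the processing. With Per1, Nfkbie passed it as lower with median centring (adjusted p = 0.0321), with quantile normalization (0.0129) and without Gfp library 14 (0.0297), and Nfkbia with median centring (0.0474), while Nfkbie passed it as higher with Per2 when no trend was fitted (0.0407).

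The largest difference in the family was in Nfkbiz, which encodes the nuclear protein IκBζ (chromosome 16, 55631738 to 55659262). In mouse macrophages IκBζ is induced early and is needed, with the Nfkb1 product, for the later induction of genes such as Il6 and Lcn2. Nfkbiz was at 11.49, 11.48, 11.47, 11.45 and 11.48 in Per1 libraries 11 to 15, against 12.04, 11.99, 12.06, 12.03 and 12.02 in Gfp libraries 11, 13, 14, 15 and 16. It was at 11.66, 11.67, 11.62, 11.73 and 11.66 in Per2 libraries 1 to 5, against 12.55, 12.48, 12.23, 12.41 and 12.45 in Gfp libraries 1 to 5. All Per libraries were low and all Gfp libraries high, with a gap of 0.50 between the nearest libraries in each experiment. Nfkbiz averaged 11.48 ± 0.015 with Per1 and 12.03 ± 0.027 with Gfp (SD, n = 5 each), and fell by 0.55 (standard error 0.019, adjusted p = 4.31e-11), or 31.8% on the linear scale. With Per2 it averaged 11.67 ± 0.040, against 12.43 ± 0.12 with Gfp (SD, n = 5 each), and fell by 0.76 (standard error 0.046, adjusted p = 3.92e-08), or 40.8%. Gfp library 3 was the lowest Gfp library of the Per2 experiment, and without it the difference was −0.80. Relative to Nfkbia in the same library, Nfkbiz was 0.032 to 0.16 higher with Per1 and 0.52 to 0.63 higher with Gfp, and 0.085 to 0.18 higher with Per2 and 0.70 to 1.00 higher with Gfp. Nfkbia passed the test in neither experiment, so these values restate the fall of Nfkbiz.

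Bcl3, the other nuclear IκB gene (chromosome 7, 19541553 to 19557570), encodes a partner of the Nfkb1 and Nfkb2 products that can turn their dimers into activators. It was at 9.96, 9.90, 9.95, 9.93 and 9.89 in the Per1 libraries and 9.97, 10.07, 10.00, 10.06 and 9.98 in their Gfp libraries, which came within 0.011 of each other without overlap. Bcl3 fell with Per1 (difference −0.093, standard error 0.028, adjusted p = 0.0138). With Per2 it was at 9.15, 9.17, 9.10, 9.29 and 9.19, and with Gfp at 9.22, 9.28, 9.05, 9.22 and 9.23, with overlap (difference −0.022, standard error 0.044, adjusted p = 0.745).

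Levels of different members can be compared only per length, here as rlog minus the log2 of the gene's exon length in kb. On that scale Rela was the highest member in all 4 groups, at 12.15 with Per1 and 12.17 with Gfp, and at 11.93 with Per2 and 11.90 with Gfp. The next level in the order was Nfkb2 in the Per1 experiment (10.66 with Per1, 10.83 with Gfp) and Nfkbia in the Per2 experiment (10.59 with Per2, 10.62 with Gfp). Nfkbiz stood 7th with Per1 and 6th with Gfp, and 6th with Per2 and 5th with Gfp. Bcl3, Rel and Nfkbie held the lowest 3 places in every group, between 6.79 and 7.84. Neighbours in the order that lay within 2 SDs of their difference were Nfkbib and Nfkbia, Relb and Nfkbiz, and Bcl3 and Rel with Per1, Rel and Bcl3 with Gfp in that experiment, and Nfkbia and Nfkb2, and Nfkbiz and Nfkb1, with Gfp in the Per2 experiment. The order of the middle places depends on the length used. With the canonical transcript in place of all exons Nfkb1 was 3rd in both Per groups and 2nd in both Gfp groups, and Rel was last in all 4 groups, while Rela kept the first place.

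**Figure D3:**
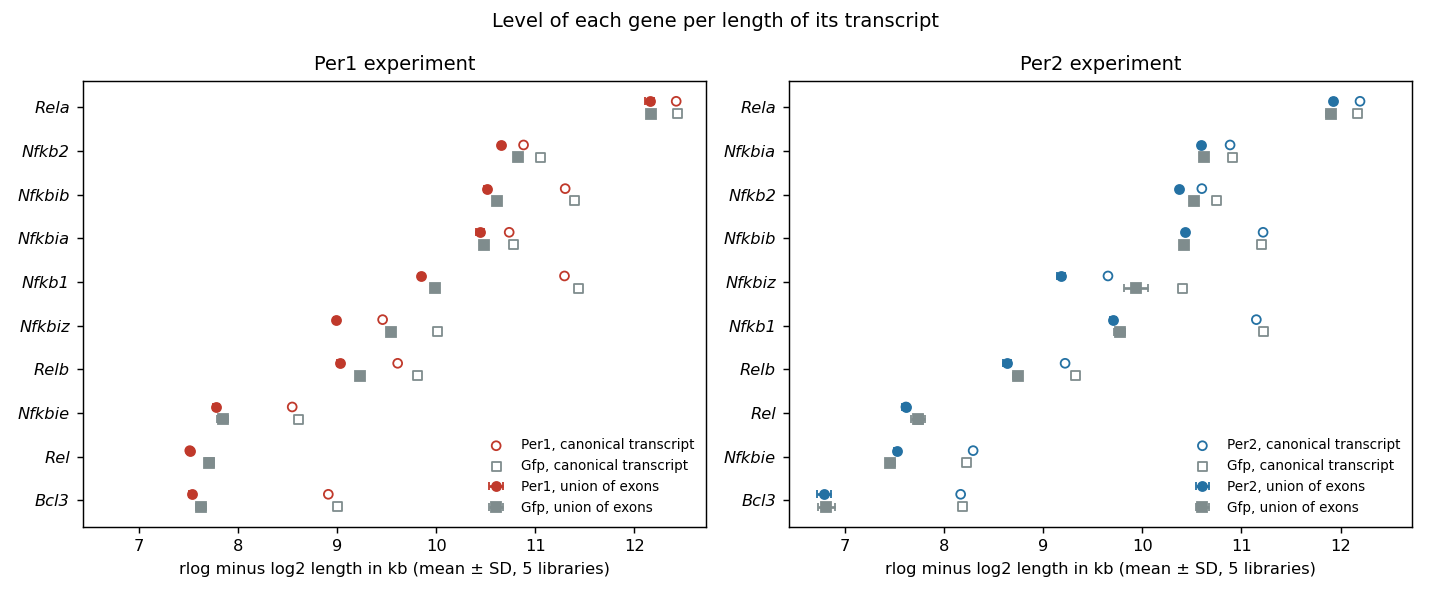
Level of each member per length (rlog minus log2 of the length in kb) in the Per1 experiment, left, and the Per2 experiment, right, with Per as circles and Gfp as squares; filled symbols use the union of exons (mean ± SD, 5 libraries) and open symbols the canonical transcript. Rela is highest in each group, and Nfkb1 stands higher by canonical transcript than by union of exons in each group.

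Libraries differed among themselves in how the members lay. In the Per2 experiment Gfp library 3 was the lowest of its group for 6 of the 10 members and Gfp library 1 the highest for 6, and Per2 library 3 was the lowest of its group for 7. In the Per1 experiment Gfp library 13 was the highest for 6. The median deviation of the members from their group means was −0.049 in Gfp library 3 and 0.047 in Gfp library 1, while the median deviation over all genes was −0.0021 and −0.0010 there. Leaving out Gfp library 3 left 5 members lower and none higher with Per2.

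By the root mean square distance between profiles over the 20 libraries, each centred within its experiment, the genes closest to Nfkbiz among 20153 were Hsph1, an HSP110 chaperone (distance 0.0453), ENSMUSG00000097971.3 (0.0587), Ccn1, a secreted matrix-associated protein (0.063), 2700038G22Rik (0.0681) and Ereg, which encodes the growth factor epiregulin (0.0811). The profile of Nfkbiz itself had a root mean square of 0.336, and the median distance over all genes was 0.339. Hsph1 differed from Gfp by −0.58 with Per1 and −0.80 with Per2, Ccn1 by −0.68 and −0.72, and Ereg by −0.71 and −0.64. The distance is measured over the same libraries after centring, so it describes likeness of the differences among libraries and not of level. It says nothing beyond that.

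Around the family, 4 lists of pathway genes were followed in the same fit. Among all genes tested, 20.1% passed the test as higher and 20.6% as lower with Per1, and 18.6% and 17.5% with Per2. These shares apply beside the counts of all 4 lists. No list was tested as a set, and a count near its share is not a result about the list. Of 23 kinases and adaptors upstream of NF-κB, 4 were higher and 10 lower with Per1 (median −0.050) and 4 were higher and 4 lower with Per2 (median 0.0042). None reached 0.5 in size. The 4 higher with Per1 were 2 under median centring, and the 4 lower with Per2 were 8 under median centring and 2 with no filter or without Gfp library 2, Gfp library 4, Per2 library 2 or Per2 library 4. Ikbke, an IκB kinase-related kinase that also acts in the interferon response, lay at 10.38 to 10.42 with Per1 and 9.93 to 10.01 with Gfp, and at 10.47 to 10.62 with Per2 and 10.14 to 10.21 with Gfp. It rose in both experiments, by 0.41 (standard error 0.024, adjusted p = 8.38e-09) and 0.36 (standard error 0.031, adjusted p = 9.84e-07). Map3k14, which encodes NIK, the kinase that starts the processing of the Nfkb2 product, fell, with a difference of −0.19 (standard error 0.025, adjusted p = 2.13e-05) with Per1 and −0.18 (standard error 0.027, adjusted p = 1.87e-04) with Per2. Its libraries did not overlap, at 11.94 to 12.02 with Per1 and 12.10 to 12.22 with Gfp, and 11.67 to 11.79 with Per2 and 11.85 to 11.95 with Gfp. Of the kinases of the interleukin-1 receptor complex, Irak2 fell with Per1 (difference −0.23, standard error 0.023, adjusted p = 1.98e-06), and its difference with Per2 was −0.055 (standard error 0.028, adjusted p = 0.147). Irak4 rose in both experiments, by 0.15 (standard error 0.020, adjusted p = 2.07e-05) with Per1 and by 0.14 (standard error 0.026, adjusted p = 7.36e-04) with Per2.

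Of 19 genes of ubiquitin editing and feedback, 4 were higher and 8 lower with Per1 (median −0.043), and 3 were higher and 5 lower with Per2 (median −0.0046), none by 0.5 or more. Zc3h12a, the RNase regnase-1 that degrades Il6 and other cytokine mRNAs, fell without overlap of the libraries, at 10.59 to 10.71 with Per1 and 10.81 to 10.95 with Gfp, and 10.53 to 10.70 with Per2 and 10.82 to 11.01 with Gfp. The differences were −0.23 (standard error 0.030, adjusted p = 2.62e-05) with Per1 and −0.26 (standard error 0.039, adjusted p = 1.24e-04) with Per2. Cyld, a deubiquitinase that restrains the pathway, fell as well, with differences of −0.11 (standard error 0.018, adjusted p = 1.68e-04) with Per1 and −0.13 (standard error 0.019, adjusted p = 1.13e-04) with Per2. Tnip2, a partner of the ubiquitin-editing enzyme A20, fell with Per1 (difference −0.13, standard error 0.025, adjusted p = 0.00107), and its difference with Per2 was −0.0046 (standard error 0.022, adjusted p = 0.898). Irak3, an inhibitory kinase-like protein, rose with Per2 (difference 0.11, standard error 0.027, adjusted p = 0.00482), and its difference with Per1 was −0.055 (standard error 0.028, adjusted p = 0.135). Nfkbid, named here outside the rule because it encodes a further nuclear IκB protein, was near the filter at 3.88 to 3.94 with Per1 and 3.89 to 3.93 with Gfp, and 4.03 to 4.09 with Per2 and 4.04 to 4.10 with Gfp, with differences of −0.0091 (standard error 0.015, adjusted p = 0.66) and −0.0091 (standard error 0.017, adjusted p = 0.715).

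**Figure D4:**
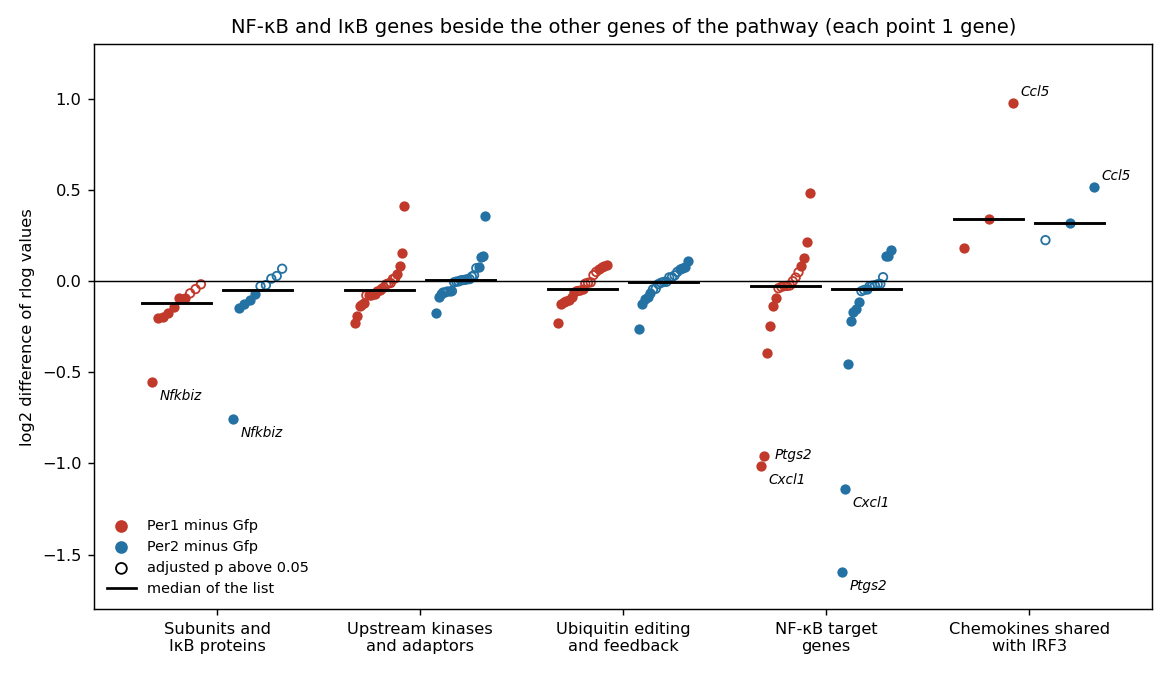
Log2 difference of rlog values (Per minus Gfp) of the 10 members and of the tested genes of the 4 pathway lists, 1 point per gene, with Per1 in red left of Per2 in blue, open circles where the adjusted p was above 0.05, and a black line at the median of each list. Points past 0.5 in size carry their names: Nfkbiz, Cxcl1, Ptgs2 and Ccl5.

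Of 24 textbook NF-κB target genes, 18 could be tested with Per1, of which 4 were higher and 6 lower (median −0.027), and 19 with Per2, of which 3 were higher and 8 lower (median −0.044). The rest, Ccl20, Cxcl2, Lcn2, Csf2, Csf3 and, with Per1, Mmp3, had a mean rlog under 3. Those that reached 0.5 in size were Ptgs2 and Cxcl1, both lower in both experiments. Ptgs2, the inducible cyclooxygenase, was at 12.81, 12.62, 12.71, 12.64 and 12.68 with Per1 and 13.61, 13.55, 13.76, 13.66 and 13.67 with Gfp, and at 12.25, 12.14, 12.15, 12.07 and 12.14 with Per2 and 13.90, 13.78, 13.53, 13.70 and 13.80 with Gfp. It fell by 0.96 (standard error 0.038, adjusted p = 2.13e-10) with Per1 and by 1.59 (standard error 0.053, adjusted p = 7.44e-11) with Per2. Cxcl1, a neutrophil chemokine, was at 8.23, 8.25, 8.32, 8.18 and 8.27 with Per1 and 9.25, 9.16, 9.33, 9.32 and 9.27 with Gfp, and at 8.29, 8.26, 8.23, 8.31 and 8.27 with Per2 and 9.46, 9.45, 9.30, 9.42 and 9.44 with Gfp. The difference was −1.01 (standard error 0.037, adjusted p = 9.39e-11) with Per1 and −1.14 (standard error 0.034, adjusted p = 2.72e-11) with Per2. In both genes the groups stood apart by more than the range within any of them. Other targets moved in either direction, and those named next are outside the rule, picked after their values were seen. Nos2, the inducible nitric oxide synthase, rose without overlap of the libraries, at 8.19 to 8.60 with Per1 and 7.73 to 8.05 with Gfp (difference 0.48, standard error 0.069, adjusted p = 6.11e-05), and at 5.57 to 5.68 with Per2 and 5.43 to 5.50 with Gfp (difference 0.17, standard error 0.026, adjusted p = 1.50e-04). Its difference with Per1 was past 0.5 without Gfp library 15 or Per1 library 14. Traf1, an adaptor of TNF receptors, rose as well, at 8.12 to 8.35 with Per1 and 7.95 to 8.07 with Gfp (difference 0.22, standard error 0.042, adjusted p = 7.58e-04), and at 7.82 to 8.07 with Per2 and 7.76 to 7.88 with Gfp (difference 0.14, standard error 0.047, adjusted p = 0.0365), with overlap in the Per2 experiment. Il6 fell, at 7.31 to 7.47 with Per1 and 7.58 to 7.68 with Gfp (difference −0.25, standard error 0.034, adjusted p = 4.22e-05), and at 7.28 to 7.42 with Per2 and 7.44 to 7.67 with Gfp (difference −0.22, standard error 0.047, adjusted p = 0.00212). Among targets not described, Ier3 fell further than Il6 in both experiments, and Vcam1 was higher with Per1 and lower with Per2. Whether the fall of Il6 is tied to that of Nfkbiz was not tested.

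The last list holds 5 genes that NF-κB shares with the interferon regulatory factor IRF3, of which 4 encode chemokines and Ifnb1 an interferon. The chemokines Ccl5, Cxcl9 and Cxcl10 could be tested, while Cxcl11 and Ifnb1 had a mean rlog under 3. All 3 were higher with Per1 (median 0.34), and Ccl5 and Cxcl9 were higher with Per2 (median of the 3 genes 0.32). Ccl5, which attracts T cells and monocytes, was at 9.33, 9.49, 9.47, 9.52 and 9.43 with Per1 and 8.44, 8.41, 8.51, 8.50 and 8.50 with Gfp, and at 10.21, 10.32, 10.33, 10.06 and 10.30 with Per2 and 9.73, 9.79, 9.68, 9.79 and 9.63 with Gfp. The groups did not overlap, and Ccl5 rose by 0.98 (standard error 0.037, adjusted p = 1.42e-10) with Per1 and by 0.52 (standard error 0.050, adjusted p = 2.87e-06) with Per2. The value with Per2 lies just past 0.5 and falls under it with median centring, with quantile normalization and without Gfp library 5, Per2 library 2 or Per2 library 3. Cxcl9 and Cxcl10, which attract activated T cells, are named here outside the rule. Cxcl9 differed by 0.18 (standard error 0.040, adjusted p = 0.00178) with Per1 and 0.32 (standard error 0.055, adjusted p = 4.45e-04) with Per2. Cxcl10 differed by 0.34 (standard error 0.034, adjusted p = 2.16e-06) with Per1. With Per2 it ranged over 9.10 to 9.93 in Per2 libraries and 9.01 to 9.40 in Gfp libraries, which overlapped (difference 0.22, standard error 0.13, adjusted p = 0.207).

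Markers of cell types differed beside these genes. The cultures were of a single myoblast line, and the paper describes them as free of immune cells. Within that line, fewer cells in a state, such as fused or proliferating, and less RNA per cell cannot be told apart in bulk RNA. The counts below stand beside 20.1% of all genes higher and 20.6% lower with Per1, and 18.6% higher and 17.5% lower with Per2. A count near its share is not a result about the markers. All 12 myotube markers passed the filter in both experiments. Of these 10 were lower and none higher with Per1, with a summed level of 21.28 to 21.34 (log2) in Per1 libraries and 21.44 to 21.48 in Gfp libraries, and 5 were lower and 1 higher with Per2, at 20.94 to 21.01 in Per2 libraries and 21.00 to 21.13 in Gfp libraries. The summed level of the 10 members was 15.71 to 15.75 with Per1 and 15.85 to 15.90 with Gfp, and 15.53 to 15.57 with Per2 and 15.61 to 15.73 with Gfp. Of 6 proliferating myoblast markers 3 were higher (Pax7, Myf5 and Ccnb1) and 1 lower (Mki67) with Per1, and 3 higher (Myf5, Top2a and Cdk1) with Per2. Top2a and Cdk1 did not pass the test with Per1. Of the 3 higher with Per1, Myf5 also reached a log2 difference of 0.5. The summed level of these markers was 16.395 to 16.542 with Per1 and 16.307 to 16.429 with Gfp, and 16.589 to 16.75 with Per2 and 16.485 to 16.635 with Gfp. Of 5 fibro-adipogenic markers 2 were higher with Per1, and 3 were higher and 1 lower with Per2. Their summed level was 17.534 to 17.579 with Per1 and 17.376 to 17.446 with Gfp. In the Per2 experiment it was 17.048 to 17.102 with Per2 and 16.815 to 16.947 with Gfp. Of 4 endothelial markers 2 were higher and 1 lower with Per1 and 3 lower with Per2. Their summed level was 8.27 to 8.34 with Per1 and 8.05 to 8.20 with Gfp, and 8.14 to 8.26 with Per2 and 8.11 to 8.21 with Gfp. Of 8 macrophage and leukocyte markers, 5 could be tested with Per1 (1 higher, 1 lower) and 6 with Per2 (2 lower), with summed levels of 10.13 to 10.20 with Per1 and 10.15 to 10.19 with Gfp, and 10.23 to 10.26 with Per2 and 10.30 to 10.37 with Gfp. The defining markers Adgre1 and Tyrobp were at 0 in all libraries of the Per2 experiment and under the filter in the Per1 experiment, where Ptprc lay at 2.65 to 2.73 with Per1 and 2.64 to 2.69 with Gfp. Ptprc was at 3.32 to 3.36 with Per2 and 3.31 to 3.37 with Gfp, just above the filter, and its difference was −0.013 (standard error 0.013, adjusted p = 0.508). The other 5 lay well above the filter. Itgam was higher with Per1, at 8.37 to 8.47 against 8.26 to 8.37 with Gfp (difference 0.10, standard error 0.032, adjusted p = 0.0213), and lower with Per2, at 8.20 to 8.26 against 8.36 to 8.44 with Gfp (difference −0.17, standard error 0.029, adjusted p = 3.44e-04). Cd68 was lower in both experiments, at 8.07 to 8.20 with Per1 and 8.19 to 8.26 with Gfp (difference −0.087, standard error 0.030, adjusted p = 0.0328), and at 7.96 ± 0.031 with Per2 and 8.16 ± 0.036 with Gfp (mean ± SD, n = 5 each; difference −0.21, standard error 0.029, adjusted p = 8.35e-05 by limma). Cd14 was at 8.69 to 8.81 with Per1 and 8.76 to 8.81 with Gfp, and at 9.07 to 9.13 with Per2 and 9.03 to 9.18 with Gfp, and neither it nor Csf1r and Lyz2, at 5.22 to 6.01 in all libraries, passed the test. The part of these markers in the differences of the members was not tested.

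Some members lie across other genes of GENCODE M39, and whether reads were counted by strand is not given in the sources used here, although the paper's methods name a directional library kit (the labels name the kit without that word). Nfkb1 is overlapped by Gm65585 and Gm43430, Nfkb2 by Psd and 4833438C02Rik, Rela by Gm56632, Nfkbia by Gm36634, Nfkbib by Ccer2, Sirt2 and Gm71901, and Bcl3 by Gm16175. Gm43430 lies on the same strand as Nfkb1 and shares 3897 bases with it, so strand cannot separate its reads there. All the others lie on the opposite strand. If strand was not used in counting, their reads cannot be told apart from those of the member in the shared bases. Overlap was taken over whole genes, introns included. Relb, Rel, Nfkbie and Nfkbiz overlap no annotated gene.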

How the data were processed

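Bulk RNA sequencing was analysed for 20 libraries of C2C12 myotubes in 4 groups of 5, assigned from the sample labels. Gfp libraries were placed in an experiment through their number series, shared with either Per group. Alignment by the authors was with STAR, and they deposited regularized log2 values from DESeq2, taken here unchanged. The paper's methods name genome GRCm39, and the labels name mm10. GENCODE M39 gave symbols and positions for 51654 of 55335 gene IDs (35 with an identical version). In each experiment, genes whose rlog averaged 3 or more in its 10 libraries (20559 with Per1, 20628 with Per2) were tested two-sided by limma 3.58.1 under R 4.3.3, with a trended prior variance, and p was adjusted after Benjamini and Hochberg over all genes tested. The fold threshold was a log2 difference of 0.5.

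The members, the gene lists and the marker lists were chosen with earlier results of these data known. Named genes are all members, up to 4 genes of each list past both thresholds or otherwise up to 3 past the adjusted p, and the 5 genes closest in profile to the member with the largest difference. Any other gene was named outside that rule. The motifs were chosen after searches of the windows. Alternatives were quantile normalization, median centring, array weights, no trend, no filter or one at 5, a fold threshold of 0.25, the library numbers as a replicate block, leaving out each library, and, chosen after seeing the data, the canonical transcript length.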

Additional observations from a re-analysis of the deposited data

Results flagged for a closer look

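Searched were 40 genes in 4 groups: the 10 members, 11 genes named from the pathway lists, the 5 closest in profile to Nfkbiz, 12 others whose values are given, and the transduced Per1 and Per2. Of these 160 combinations of a gene and a group, 7 held a library further from the other 4 than Dixon's criterion for 5 values allows, and chance gives about 1 in 20. Nfkb2 was at 13.605 rlog in Per1 library 12, against 13.638 to 13.65 in the other Per1 libraries. The Per1 transcript was also lowest in that library, at 19.388, against 19.589 to 19.645 in the others. In the Per2 experiment Gfp library 3 was low for Bcl3, at 9.0516 against 9.2178 to 9.2779 in the other Gfp libraries, for Cxcl1, at 9.2956 against 9.4166 to 9.4581, and for Ereg, at 11.228 against 11.372 to 11.425. ENSMUSG00000097971.3 was low in Gfp library 11 of the Per1 experiment, at 15.971 against 16.063 to 16.088, and Itgam in Per2 library 5, at 8.1959 against 8.242 to 8.2569. Itgam was also higher in every Per1 library than in every Gfp library of its experiment (difference 0.1015) and lower in every Per2 library than in every Gfp library of the other (difference −0.1713). The difference between these effects was not tested.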

How the results depend on the processing

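Each member was refitted in each comparison under 17 alternatives. Of these 340 values, 326 stayed on their side of the threshold, 9 lost it (all Nfkb1 with Per2), 5 gained it, and none that passed changed sign. The differences of Rela with Per1 and of Nfkbib with Per2, which passed in no fit, crossed 0 (up to 0.015 and down to −0.0084). With Per1, 7 members were lower, and 7 to 8 when a library was left out. With Per2, 5 were lower, and 4 to 5 when a library was left out. With no trend 1 member, Nfkbie, was higher with Per2, where none was otherwise. The log2 difference of Nfkbiz ranged over −0.56 to −0.54 with Per1 and −0.80 to −0.72 with Per2 when a library was left out, and stayed past 0.5 under all 17 alternatives. The kinases and adaptors higher with Per1 were 2, not 4, under median centring and the replicate block, and those lower with Per2 were 8 under median centring and 2 with no filter and the replicate block, with 2 to 5 when a library was left out. At a fold threshold of 0.25, 1 kinase and 2 shared chemokines were higher in each comparison. There 1 NF-κB target was higher with Per1, and 1 feedback gene was lower with Per2. Among all genes tested, 612 of 20559 were higher and 406 lower at that threshold with Per1. With Per2, 455 of 20628 were higher and 409 lower. A count near these shares is not a result about a list. When a library was left out, 0 to 1 targets were higher past 0.5 with Per1 and 0 to 1 shared chemokines with Per2, and that of the chemokines was 0 under median centring and quantile normalization. By canonical transcript, in Gfp libraries, the rank of Nfkb2 was 4 in the Per1 and 5 in the Per2 experiment, that of Nfkb1 was 2 in both, and that of Nfkbia 4 in the Per2 experiment. The library numbers did not pair the samples (correlation of deviations −0.015 to 0.14 with Per1 and −0.10 to 0.18 with Per2). With them as a replicate block, which leaves out Gfp library 16 and Per1 library 12, 7 and 5 members were lower, and the Nfkb1 value with Per2 passed. No counts were used here, so depth sets no stated limit.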
